A study of Rattus norvegicus with 6 samples.

Results

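The nuclear genes of oxidative phosphorylation were taken from the count table of rat H9C2 cells as its protein-coding rows outside the mitochondrial chromosome with symbols of the families Nduf(a, b, c, s, v), Sdh(a to d), Uqcr, Cyc1, Cycs, Cox4 to Cox8 and Atp5. That rule took 95 of 19825 genes. They comprised 77 subunits of complexes I to V and cytochrome c, 4 tissue isoforms of complex IV subunits, 9 assembly factors whose symbols share the prefixes (Ndufaf1 to Ndufaf8 and Cox7a2l), the ATP synthase inhibitor Atp5if1 and 4 gene copies. Ndufa4, named after complex I but a subunit of complex IV, was placed with complex IV. Of the 95 genes, 90 passed the filter on low counts and were tested.

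RNA sequencing was done on 6 libraries of H9C2 cells, myoblasts of a line derived from rat embryonic heart and labelled as cardiomyocytes. In 3 libraries (siPUM2) the RNA-binding protein PUM2 had been knocked down by transfection of small interfering RNA. The 3 control libraries (NC) were transfected too, according to the labels with an empty vector, so the labels give the groups different kinds of transfected nucleic acid. No genotype, age or separate culture is labelled, and the p-values therefore measure only the spread between these libraries, which may be technical.

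Oxidative phosphorylation makes ATP at the inner mitochondrial membrane. Complexes I and II pass electrons from NADH and succinate to ubiquinone, complex III hands them to cytochrome c, and complex IV reduces oxygen with them, while complexes I, III and IV move protons outwards and complex V, the ATP synthase, uses their return. Most subunits are nuclear-encoded and imported, a few are encoded by mitochondrial DNA, and heart and skeletal muscle replace some ubiquitous complex IV subunits by isoforms of their own.

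Library totals lay between 27704702 (siPUM2 2) and 30579237 counts (NC 3), and 1 count was worth 0.0327 to 0.0361 CPM (the gene's count relative to the library total, scaled here with TMM factors). Pum2 itself averaged 124 ± 4.01 CPM in siPUM2 cells and 225 ± 2.67 CPM in NC cells (SD, n = 3 each), a log2 fold change of -0.86 with an adjusted p of 9.23e-19 by edgeR. All adjusted p-values given here are from edgeR's quasi-likelihood test, adjusted over all 12985 tested genes with calls made under 0.05. The 95 genes together took 1.425% to 1.465% of the counts in siPUM2 libraries and 1.42% to 1.462% in NC libraries. Of the defining cardiomyocyte genes, Tnnt2 and Nkx2-5 averaged at least 17.9 CPM in siPUM2 cells and 19.7 CPM in NC cells, whereas Myh6, Myh7, Tnni3, Actc1 and Ryr2 averaged under 1 CPM in both. The library siPUM2 3 held more nuclear ribosomal RNA (0.102% of its counts) than the others (0.0275% to 0.0510%).

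The nuclear oxidative phosphorylation genes were called about as often as genes at large, and in both directions. Of the 90 tested, 15 were higher in siPUM2 cells, which is 16.7% against 15.1% of all genes tested, and 14 were lower, which is 15.6% against 13.3%. In either direction 29 were called, or 32.2% against 28.4% of all genes. Their median log2 fold change was 0.0073 and that of all genes tested was 0.0011. The called genes moved by a median of 0.12 on the log2 scale, against 0.20 for called genes at large. Smaller changes can be called in abundant genes than in scarce ones, and the tested members had a median of 137 FPKM. The call rates and median sizes were not matched for abundance, so they do not compare the strength of response. In CPM the groups did not overlap for 35 of the 90 genes (38.9%), against 39.9% of all genes tested. The split of calls differed between complexes, as the plot of all fold changes shows, and this was not tested. In complex I 20% of 35 tested subunits were called higher and 11.4% lower, near the shares of all genes. For the 4 subunits of complex II the shares were 0% and 25%, and for the 9 of complex III 22.2% each. The 11 ubiquitous subunits of complex IV had 36.4% and 0%, and the 16 of complex V 12.5% and 31.25%. In complex IV the called genes were ubiquitous subunits that were higher and tissue isoforms that were lower, and complex V had more lower than higher subunits.

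**Figure D1:**
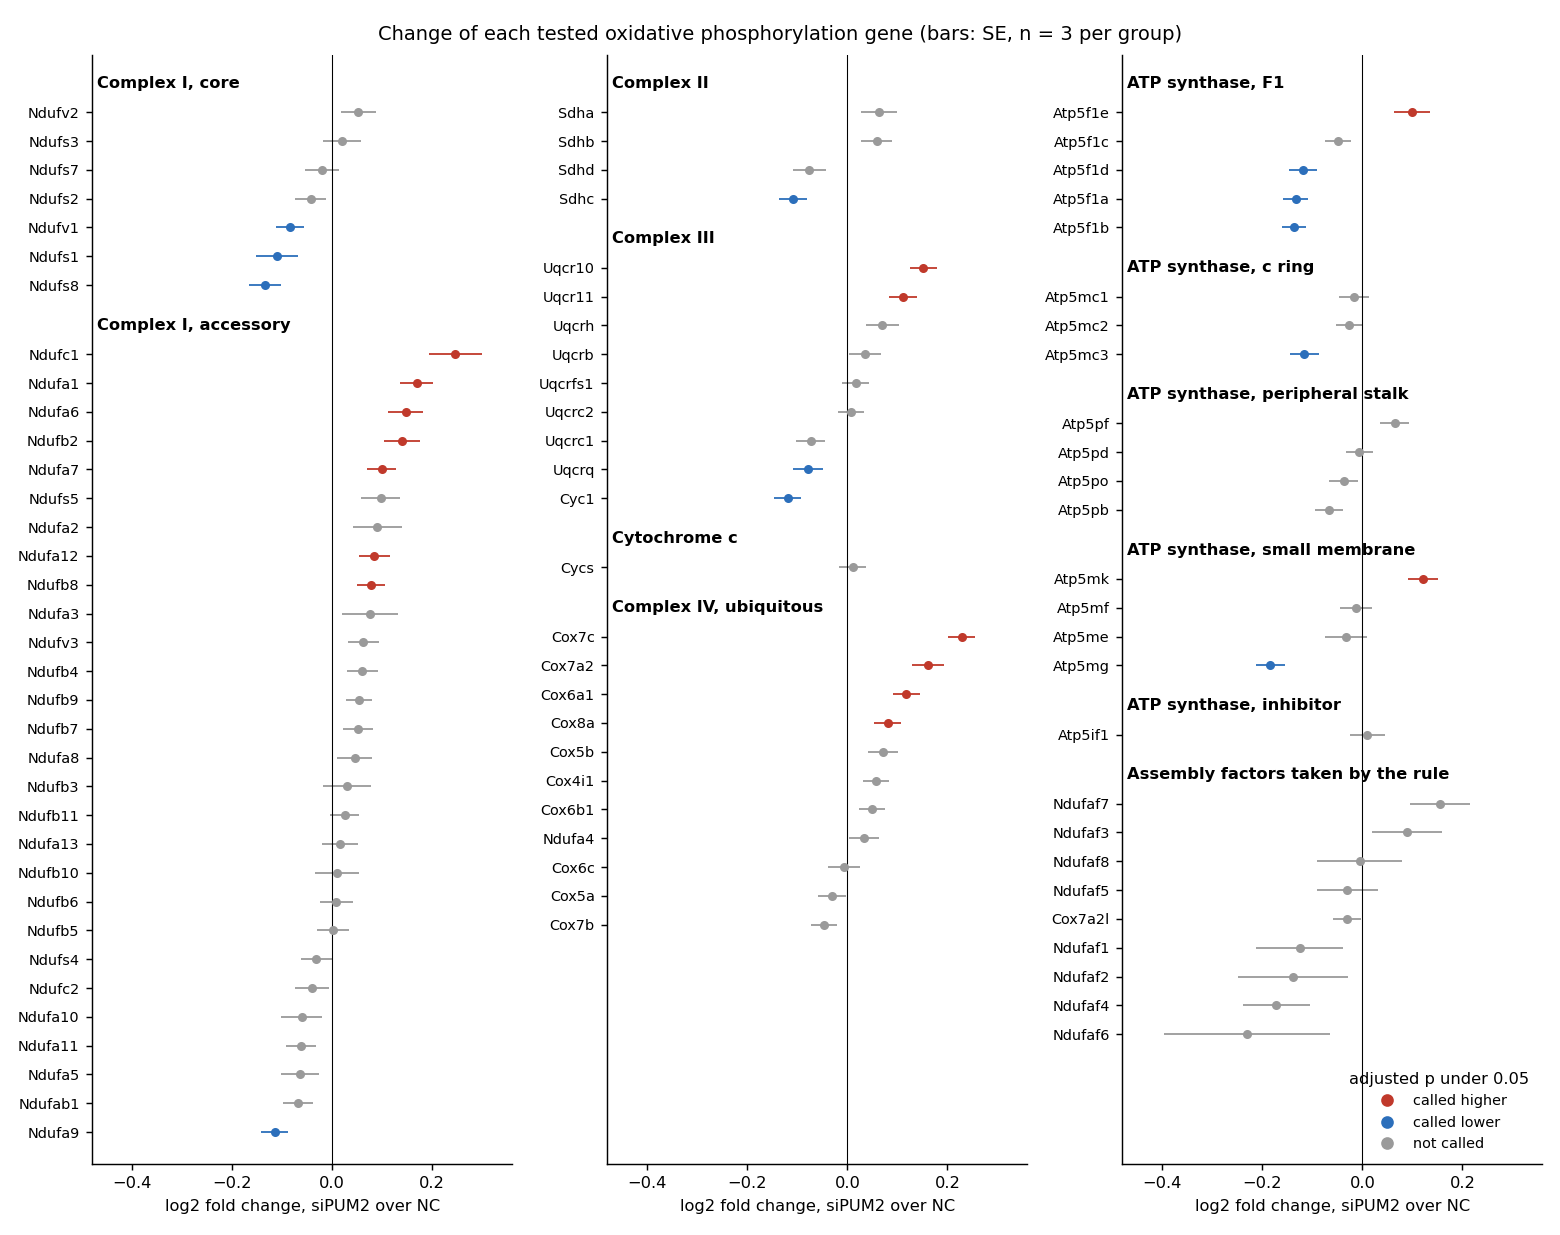
Log2 fold change (siPUM2 over NC, x axis) of the tested genes, grouped by complex and role, with bars of 1 SE from edgeR and colours for the call (3 libraries per group). All of the points lie within 0.25 of 0. The 3 tested tissue isoforms and the copy Cox7a2l2 are not drawn.

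The split of calls depended on the control library NC 3 and on scaling. Among the 15 genes called higher, NC 3 was the lowest NC library for 13, and siPUM2 3 was the highest siPUM2 library for 12. Without NC 3 the counts were 9 higher and 17 lower, and without siPUM2 3 they were 11 higher and 17 lower. With upper quartile factors in place of TMM they were 12 higher and 19 lower, and with each library's trend of counts with gene length removed they were 23 higher and 14 lower. Of the 29 calls, 19 held whichever library was left out. The other 10 were Atp5f1e, Cox8a, Cox8b, Ndufa12, Ndufa7, Ndufb2, Ndufb8, Ndufs1, Ndufv1 and Uqcrq.

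The largest differences were in the muscle isoforms of complex IV, Cox6a2 and Cox8b, which were lower in siPUM2 cells and low in abundance in both groups. Cox6a2 encodes the heart and skeletal muscle form of subunit 6A. It had 30, 26 and 40 counts in siPUM2 libraries 1 to 3, against 52, 55 and 90 counts in NC libraries 1 to 3. Every siPUM2 library was below every NC library. The level averaged 1.13 ± 0.224 CPM in siPUM2 cells and 2.21 ± 0.632 CPM in NC cells, 1.96-fold lower (log2 fold change -0.97, SE 0.24, adjusted p = 0.00244 by edgeR). NC 3 was the highest library, and without it the log2 fold change was -0.70 and the adjusted p 0.0478.

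Cox8b encodes the muscle form of subunit 8. It had 13, 21 and 16 counts in siPUM2 libraries, against 30, 39 and 25 counts in NC libraries, again with no overlap. The log2 fold change was -0.84 (SE 0.31, adjusted p = 0.0398 by edgeR), 1.79-fold lower. That call was lost without NC 1, NC 2, siPUM2 1 or siPUM2 3 (adjusted p 0.0915, 0.181, 0.159 and 0.0973), and by DESeq2 (adjusted p 0.124). Among the other tissue isoforms, Cox7b2, the testis form of subunit 7B, had 18, 23 and 27 counts in siPUM2 libraries and 32, 20 and 26 in NC libraries, which overlapped (log2 fold change -0.14, adjusted p = 0.781 by edgeR). Ndufa4l2, a paralogue of Ndufa4 that is induced by hypoxia, had 1, 1 and 0 counts in siPUM2 libraries and 3, 5 and 4 in NC libraries, too few to be tested.

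Beside these muscle isoforms, 5 of 8 skeletal myoblast markers were tested, and their list summed to 385 to 409 CPM in siPUM2 libraries and 364 to 373 CPM in NC libraries. Myog, the transcription factor of myoblast differentiation, was lower at 9.23 ± 0.445 CPM in siPUM2 cells and 20.1 ± 4.23 CPM in NC cells (log2 fold change -1.12, adjusted p = 1.86e-09 by edgeR). Cdh15, Mymk and Des were called higher, by 0.20, 0.17 and 0.17 on the log2 scale, and of these calls 1 was left without NC 3 or siPUM2 2 and by DESeq2. The cardiomyocyte list summed to 458 to 513 CPM in siPUM2 libraries and 296 to 353 CPM in NC libraries, almost all of it Tnnt2 (474 ± 32.4 CPM in siPUM2 cells, 298 ± 28.8 CPM in NC cells). Their part in the isoform result was not tested, and in bulk RNA fewer cells of a type and less RNA per cell cannot be told apart.

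**Figure D2:**
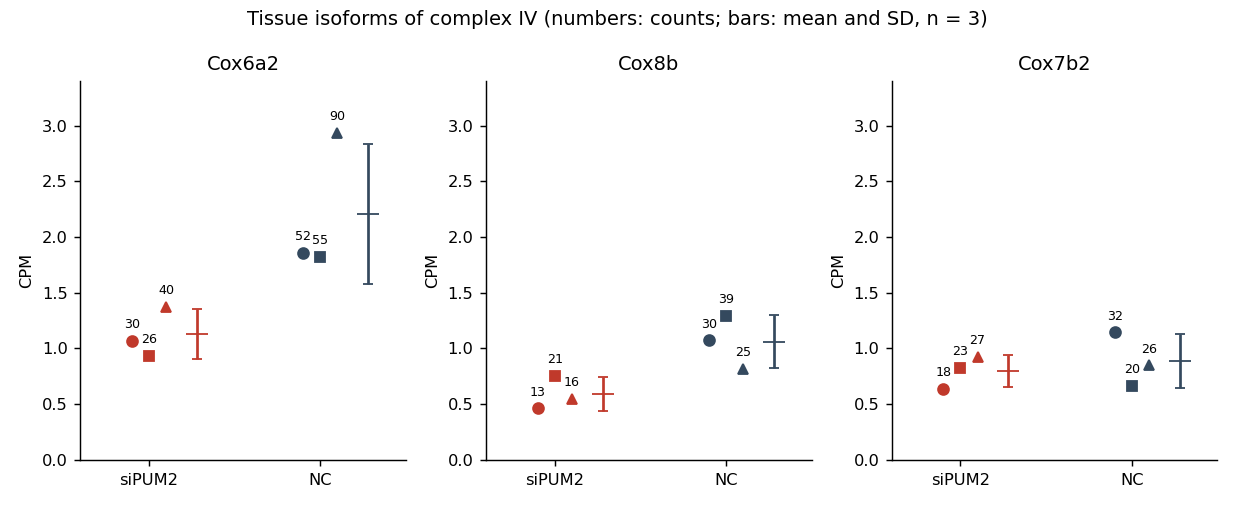
Level in CPM (y axis) of the 3 tested tissue isoforms of complex IV in each siPUM2 and NC library, with the raw count printed above each point and the mean and SD beside it (n = 3). For Cox6a2 and Cox8b all siPUM2 points lie below all NC points, and for Cox7b2 the groups overlap.

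The ubiquitous partners of both isoforms were far more abundant and moved the other way. Cox6a1 had 512, 519 and 546 CPM in siPUM2 libraries, against 491, 488 and 474 CPM in NC libraries, without overlap (log2 fold change 0.12, SE 0.03, adjusted p = 0.00121 by edgeR). Cox8a had 394, 374 and 400 CPM in siPUM2 libraries, against 365, 375 and 365 CPM in NC libraries, where siPUM2 2 lay within the NC range (log2 fold change 0.08, SE 0.03, adjusted p = 0.0251 by edgeR). The Cox8a call was lost without NC 1, NC 3, siPUM2 1 or siPUM2 3.

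In length-scaled units (FPKM, as deposited) Cox6a2 made up 0.218%, 0.188% and 0.263% of the Cox6a2 and Cox6a1 pair in siPUM2 libraries, against 0.395%, 0.390% and 0.645% in NC libraries. Cox8b made up 0.181%, 0.313% and 0.213% of its pair with Cox8a in siPUM2 libraries, against 0.455%, 0.533% and 0.345% in NC libraries. Neither share overlapped between the groups. The 2-sided exact permutation test gave p = 0.1 for each pair, the smallest value that 3 against 3 libraries allow, so no call was possible. The muscle form was thus under 1% of its pair in every library. Cox7a1 and Cox4i2, the muscle and lung forms of subunits 7A and 4, were not matched by symbol, so no share was computed for them here.

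The promoters of Cox6a2, Cox8b and Cox8a are printed because the 2 muscle isoforms were lower while Cox8a, the partner of Cox8b, was higher. Each runs from 250 bases before to 50 after the RefSeq start on the rat assembly GRCr8, and all lie on the minus strand of chromosome 1: Cox6a2 at chr1:192219667-192219966, Cox8b at chr1:205408224-205408523 and Cox8a at chr1:213833574-213833873. Capitals mark the E-box CAGCTG and the MEF2 motif CTANNNNTAG, known from muscle promoters, and the ETS motif CCGGAAG, the NRF1 motif GCGCATGC and the YY1 motif AAGATGGC, known from promoters of respiratory genes, each searched on both strands.
Cox6a2: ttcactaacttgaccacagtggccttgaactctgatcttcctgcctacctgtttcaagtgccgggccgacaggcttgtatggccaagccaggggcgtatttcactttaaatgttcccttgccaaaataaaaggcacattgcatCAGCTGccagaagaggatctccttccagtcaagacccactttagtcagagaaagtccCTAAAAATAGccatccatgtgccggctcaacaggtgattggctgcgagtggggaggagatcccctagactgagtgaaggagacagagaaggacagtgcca
Cox8b: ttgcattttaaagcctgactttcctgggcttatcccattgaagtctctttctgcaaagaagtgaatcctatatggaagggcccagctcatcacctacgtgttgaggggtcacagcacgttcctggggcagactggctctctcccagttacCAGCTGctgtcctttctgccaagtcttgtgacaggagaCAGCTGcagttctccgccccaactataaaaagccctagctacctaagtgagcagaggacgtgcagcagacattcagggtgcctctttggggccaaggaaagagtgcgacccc
Cox8a: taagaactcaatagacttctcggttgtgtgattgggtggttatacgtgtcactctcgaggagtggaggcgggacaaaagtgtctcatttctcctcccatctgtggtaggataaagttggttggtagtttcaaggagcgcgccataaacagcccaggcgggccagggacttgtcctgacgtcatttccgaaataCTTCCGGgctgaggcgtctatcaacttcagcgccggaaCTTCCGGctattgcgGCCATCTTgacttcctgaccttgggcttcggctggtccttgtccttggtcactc
The Cox6a2 window held 1 E-box and 1 MEF2 match, the Cox8b window held 2 E-boxes, and the Cox8a window held 2 ETS matches and 1 YY1 match. No window held any other match to the 5 motifs. For Cox6a1, the partner of Cox6a2, no window is given, since it was not among the tested subunits with a promoter matched by symbol. An E-box of these letters was in 15.1% of all 24206 rat promoters in the RefSeq table and the MEF2 motif in 3.77%.

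Promoters were found in the table for 82 of the 95 genes, among them 67 tested subunits. In these subunits the 3 motifs of respiratory promoters were in larger shares of the windows than among tested genes. The E-box was in a smaller share. These differences were not tested. The ETS motif was in 31.3% of the subunits' windows, against 18.8% of the windows of 9082 tested genes and 9.49% of all promoters. The YY1 motif was in 20.9%, against 5.98% of tested genes and 3.58% of all promoters. For the NRF1 motif the shares were 13.4% of subunits, 5.34% of tested genes and 2.76% of all promoters. The E-box was in 11.9% of subunits and 15.7% of tested genes. The MEF2 motif, searched with any bases in its middle, was in 1.49% of subunits and 2.92% of tested genes. The subunits' MEF2 share was 1 window of 67, too few to compare. These are counts of letters in a window, not sites of binding.

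In complex I, the NADH dehydrogenase, 35 of 36 subunits were tested, 7 were higher and 4 were lower in siPUM2 cells. The 7 nuclear core subunits, which carry the flavin and the iron-sulphur centres and are shared with bacteria, had 3 lower calls and 0 higher. Those shares were 42.9% lower and 0% higher, against 13.3% and 15.1% of all genes tested. Ndufs8, an iron-sulphur subunit next to the ubiquinone site, averaged 134 ± 2.02 CPM in siPUM2 cells and 148 ± 7.85 CPM in NC cells (log2 fold change -0.13, SE 0.03, adjusted p = 0.00183 by edgeR). Ndufs1, an iron-sulphur subunit of the NADH-oxidising module, differed by -0.11 (adjusted p 0.0471) and Ndufv1, the NADH-binding subunit, by -0.08 (adjusted p 0.0239), by edgeR. Without NC 1, NC 2 or siPUM2 2, 1 core gene was called lower, and DESeq2 called 2. No core gene had a positive change with an unadjusted p under 0.05, and DESeq2 and voom each called 0 of them higher.

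The accessory subunits of complex I, which surround the core and were added in eukaryotes, had 7 higher calls and 1 lower among 28 tested. Those shares were 25% higher and 3.57% lower, against 15.1% and 13.3% of all genes tested. The difference between core and accessory subunits was not tested. Ndufc1, a small subunit of the membrane arm, had 45.45, 48.84 and 50.003 CPM in siPUM2 libraries, against 41.73, 41.18 and 38.78 CPM in NC libraries. Ndufa1, a small membrane-arm subunit encoded on the X chromosome, had 92.3, 99.2 and 98.1 CPM in siPUM2 libraries, against 86.5, 88.2 and 83.0 CPM in NC libraries. The groups were apart for both genes, at log2 fold changes of 0.25 (SE 0.05, adjusted p = 0.000633 by edgeR) for Ndufc1 and 0.17 (SE 0.03, adjusted p = 0.000275 by edgeR) for Ndufa1. Ndufc1 had the largest rise of the 76 tested subunits.

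Ndufa6 (0.15), Ndufb2 (0.14), Ndufa7 (0.10), Ndufa12 (0.08) and Ndufb8 (0.08) were the other accessory genes called higher, given as log2 fold changes. Ndufb8, the most abundant complex I gene in FPKM, had 269, 267 and 275 CPM in siPUM2 libraries, against 260, 263 and 245 CPM in NC libraries (adjusted p = 0.0350 by edgeR). NC 3 was the lowest library for Ndufb8, and without it the adjusted p was 0.218. The accessory subunit called lower was Ndufa9, which sits where the peripheral arm meets the membrane arm. It averaged 124 ± 1.30 CPM in siPUM2 cells and 134 ± 1.51 CPM in NC cells (log2 fold change -0.12, SE 0.03, adjusted p = 0.00168 by edgeR). Without NC 3 the accessory subunits had 3 higher and 3 lower calls. The remaining 20 tested accessory subunits were not called and differed by between -0.07 (Ndufab1) and 0.10 (Ndufs5).

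Summed over its subunits, complex I held 4402, 4412 and 4515 FPKM in siPUM2 libraries, against 4401, 4390 and 4217 FPKM in NC libraries. The groups touched without overlapping, at a ratio of 1.02, and overlapped once the most abundant gene, Ndufb8, was left out. The core genes alone held 468 ± 3.24 FPKM in siPUM2 cells and 484 ± 13.4 FPKM in NC cells, which overlapped, and the accessory genes 3975 ± 59.5 FPKM in siPUM2 cells and 3852 ± 90.0 FPKM in NC cells, which did not. The assembly factors Ndufaf1 to Ndufaf8, which help to build complex I and are not part of it, had 0 calls by edgeR and by DESeq2, 2 by voom, and 2 genes at an unadjusted p under 0.05. Those were Ndufaf4 (-0.17, adjusted p 0.0542 by edgeR) and Ndufaf7 (0.15, adjusted p 0.0558 by edgeR), named after their values were seen.

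Complex II, succinate dehydrogenase, also belongs to the citric acid cycle, and all of its subunits are nuclear. Sdhc, a membrane anchor and the most abundant of the 4, had 145, 147 and 153 CPM in siPUM2 libraries, against 163, 157 and 161 CPM in NC libraries, and was lower without overlap (log2 fold change -0.11, SE 0.03, adjusted p = 0.00405 by edgeR). Its partner anchor Sdhd had 89.5 CPM on average in siPUM2 cells and 94.4 CPM in NC cells, which overlapped (log2 fold change -0.08, SE 0.03, adjusted p = 0.0849 by edgeR). That gene was called lower without siPUM2 3 (adjusted p 0.0330) and with upper quartile factors (adjusted p 0.0473). The catalytic subunits Sdha, which holds the flavin, and Sdhb, which holds the iron-sulphur centres, differed by 0.06 each and were not called. The summed level was 281 ± 5.67 FPKM in siPUM2 cells and 289 ± 5.37 FPKM in NC cells, with overlap.

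In complex III, the cytochrome bc1 complex, 2 of 9 subunits were higher and 2 were lower. Cyc1, the cytochrome that passes electrons to cytochrome c, had 163, 162 and 165 CPM in siPUM2 libraries, against 178, 180 and 174 CPM in NC libraries, with every siPUM2 library lower (log2 fold change -0.12, SE 0.03, adjusted p = 0.000893 by edgeR). Uqcr10, a small subunit beside Cyc1, had 200, 207 and 203 CPM in siPUM2 libraries, against 181, 189 and 178 CPM in NC libraries, with every siPUM2 library higher (log2 fold change 0.15, SE 0.03, adjusted p = 0.000105 by edgeR). The small subunit Uqcr11 was also higher (0.11, adjusted p 0.00294 by edgeR), and Uqcrq was lower (-0.08, adjusted p 0.0438 by edgeR) although its groups overlapped. Uqcrq was not called by DESeq2 (adjusted p 0.0838) or without NC 1, NC 3, siPUM2 1 or siPUM2 2.

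Uqcrh, the hinge subunit between Cyc1 and cytochrome c, was the most abundant of complex III at 273 FPKM in siPUM2 cells and 261 FPKM in NC cells. Its log2 fold change of 0.07 was not called (adjusted p 0.122 by edgeR) and was called with the length trend removed (0.09, adjusted p 0.0175). The Rieske iron-sulphur protein Uqcrfs1 and the core proteins Uqcrc1 and Uqcrc2 differed by 0.02, -0.07 and 0.01 and were not called. Summed levels overlapped, at 1255 ± 19.1 FPKM in siPUM2 cells and 1223 ± 33.4 FPKM in NC cells. Cytochrome c itself, Cycs, the carrier between complexes III and IV, averaged 215 CPM in siPUM2 cells and 213 CPM in NC cells (log2 fold change 0.01, SE 0.03, adjusted p = 0.815 by edgeR).

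Complex IV, cytochrome c oxidase, had 4 higher calls and 0 lower among its 11 ubiquitous nuclear subunits. DESeq2 and voom gave the same counts of 4 and 0, and none of the 11 had a negative change at an unadjusted p under 0.05. Cox7c, a small subunit with a single membrane helix, had 250, 246 and 257 CPM in siPUM2 libraries, against 215, 220 and 209 CPM in NC libraries. This was 1.17-fold higher (log2 fold change 0.23, SE 0.03, adjusted p = 1.89e-07 by edgeR), and its p was the lowest of all 90 genes tested. Cox7a2, a small subunit of the same kind, had 156, 157 and 161 CPM in siPUM2 libraries, against 148, 144 and 132 CPM in NC libraries (log2 fold change 0.16, SE 0.03, adjusted p = 0.000282 by edgeR). For both genes every siPUM2 library was above every NC library.

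Cox6a1 and Cox8a, described above, were the other higher subunits. Cox4i1, Cox6b1 and Cox7b had groups that did not overlap but were not called, at 0.06, 0.05 and -0.05. Cox7b, the partner of Cox7b2, averaged 173 CPM in siPUM2 cells and 179 CPM in NC cells (adjusted p = 0.181 by edgeR), and Ndufa4, the partner of Ndufa4l2, averaged 195 CPM in siPUM2 cells and 191 CPM in NC cells (adjusted p = 0.456 by edgeR). The ubiquitous subunits summed to 4951, 4981 and 5158 FPKM in siPUM2 libraries, against 4840, 4859 and 4693 FPKM in NC libraries, a ratio of 1.05 with no overlap, and the groups also stayed apart without Cox6a1, the most abundant. Cox7a2l, which joins complexes III and IV in supercomplexes, differed by -0.03 (adjusted p = 0.469 by edgeR).

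**Figure D3:**
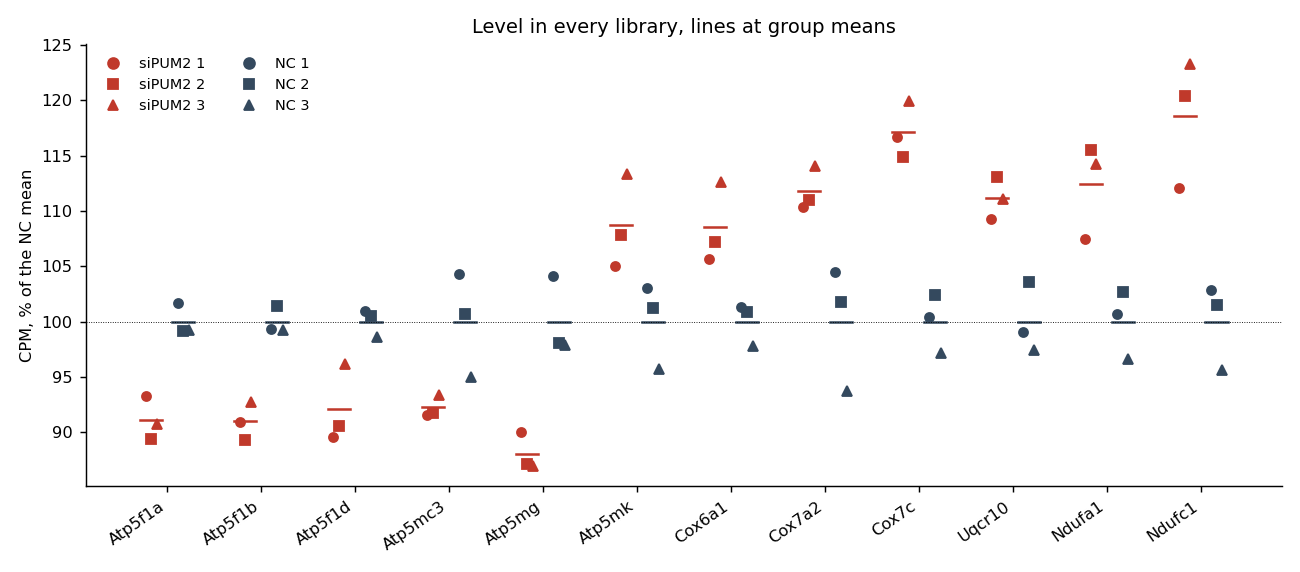
CPM of 12 called genes in each library as a percent of the gene's NC mean (y axis), siPUM2 left of NC for each gene, with a line at each group mean. For the 5 ATP synthase genes on the left every siPUM2 library is below every NC library, and for the 7 genes on the right every siPUM2 library is above.

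Complex V, the ATP synthase, had 2 higher and 5 lower calls among 16 subunits. Its catalytic head, F1, accounted for 3 of the lower ones. Atp5f1b, the catalytic beta subunit, had 1486, 1459 and 1515 CPM in siPUM2 libraries, against 1623, 1658 and 1621 CPM in NC libraries, and was 1.10-fold lower without overlap (log2 fold change -0.14, SE 0.02, adjusted p = 8.08e-05 by edgeR). Atp5f1a, the alpha subunit that alternates with it, differed by -0.13 (SE 0.03, adjusted p = 0.000164 by edgeR), and Atp5f1d, the delta subunit of the central stalk, by -0.12 (SE 0.03, adjusted p = 0.00151 by edgeR). These 3 calls held whichever library was left out. Atp5f1e, the small epsilon subunit, went the other way by 0.10 (adjusted p 0.0377 by edgeR), but its groups overlapped and the call was lost without NC 1, NC 3, siPUM2 2 or siPUM2 3. Atp5f1c, the gamma subunit of the rotor, was not called (-0.05, adjusted p 0.175 by edgeR).

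In the membrane part of the ATP synthase, Atp5mg, the g subunit at the interface of ATP synthase dimers, had the largest fall of the 76 tested subunits. It had 188, 182 and 181 CPM in siPUM2 libraries, against 217, 205 and 204 CPM in NC libraries, 1.14-fold lower without overlap (log2 fold change -0.18, SE 0.03, adjusted p = 1.14e-05 by edgeR). Atp5mk, a small subunit in the same region, was higher at 244 ± 9.44 CPM in siPUM2 cells and 224 ± 8.53 CPM in NC cells (log2 fold change 0.12, SE 0.03, adjusted p = 0.00291 by edgeR). Of the 3 genes for the c ring, the proton-driven rotor, Atp5mc3 was lower (-0.12, adjusted p 0.00294 by edgeR), and Atp5mc1 and Atp5mc2 were not called at -0.02 and -0.03. The 4 peripheral stalk genes had 0 calls by edgeR, DESeq2 and voom, with 2 at an unadjusted p under 0.05. Atp5if1, the inhibitor of ATP hydrolysis, differed by 0.01.

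Summed FPKM of the 5 F1 genes was 1588, 1596 and 1646 in siPUM2 libraries, against 1703, 1734 and 1697 in NC libraries, a ratio of 0.941 with no overlap. Without Atp5f1b, the most abundant, the ratio was 0.972 and the groups overlapped. In that smaller sum Atp5f1a (212 FPKM in siPUM2 cells, 233 FPKM in NC cells) and Atp5f1d (202 and 220 FPKM) were lower. Atp5f1e was higher (303 and 284 FPKM). Over all 16 subunits the sums overlapped, at 5074 ± 123 FPKM in siPUM2 cells and 5230 ± 118 FPKM in NC cells. On summed CPM, which gives long messages more weight, they were apart, at 4910 ± 96.8 in siPUM2 cells and 5175 ± 87.5 in NC cells.

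By level per length, the most abundant genes were Cox6a1 at 846 ± 26.9 FPKM in siPUM2 cells and 782 ± 13.7 FPKM in NC cells, and Atp5f1b at 747 ± 12.9 FPKM in siPUM2 cells and 823 ± 9.49 FPKM in NC cells. Their order was thus not the same in the groups, and both differed beyond their spread. Over both groups the median tested subunit had 153 FPKM and the range was 10.6 (Ndufa10) to 814 FPKM (Cox6a1). The assembly factors had a median of 11.2 FPKM. Ndufs6, a zinc-binding accessory subunit of complex I, had 1, 3 and 1 counts in siPUM2 libraries and 5, 2 and 1 in NC libraries, and the copies Ndufa10l1, Ndufa13-ps1 and Atp5hl1 were also too low to be tested. A row outside the rule, LOC679739, is described in the file as an NADH dehydrogenase Fe-S protein 6 and averaged 68.1 CPM in siPUM2 cells and 69.6 CPM in NC cells (log2 fold change -0.03, adjusted p = 0.564 by edgeR). Several members have near-identical copies in the genome, and how the counting split their reads is not given in the sources used here.

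Across the 76 tested subunits, shorter genes were more often higher and longer genes more often lower. Lengths, in bases, were implied from the deposited tables as the ratio of CPM to FPKM, and the division into 3 groups by length was made after the values were seen. The shortest 25 subunits (implied lengths 326 to 632) had 11 higher calls and 1 lower, and their median log2 fold change was 0.08. The middle 25 (633 to 1176) had 4 higher and 1 lower, with a median of 0.03. The longest 26 (1192 to 6240) had 0 higher and 10 lower, with a median of -0.07. In these longest genes DESeq2 and voom also called 0 higher, 1 had a positive change at an unadjusted p under 0.05, and with the length trend removed 1 was called higher. Without NC 3 the shortest 25 had 6 higher and 3 lower calls, and without siPUM2 3 they had 8 higher and 2 lower.

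All tested genes in the same length ranges, which include the subunits themselves, did not follow that order. In the range of the shortest subunits 8.19% of all tested genes were called higher and 14.7% lower, with a median log2 fold change of -0.05. In the middle range 12.5% were higher and 14.3% lower (median -0.01), and in the range of the longest 14.9% were higher and 15.0% lower (median -0.01). As a description over 76 genes that share libraries and depth, Spearman's rho between length and log2 fold change was -0.52 (Pearson's r with log2 length -0.50), against a rho of 0.09 over all tested genes. With each library's own length trend removed, rho over the subunits was -0.57. Genes are not independent replicates, and whether length or another property of these genes goes with the difference was not tested. Length also went with complex and role. The 11 ubiquitous complex IV subunits had implied lengths of 506 to 886, and the 3 core genes of complex I called lower had 1680 to 2797. Atp5mg, at 541, was short and called lower. The splits by complex, role and length thus share calls and were not told apart.

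**Figure D4:**
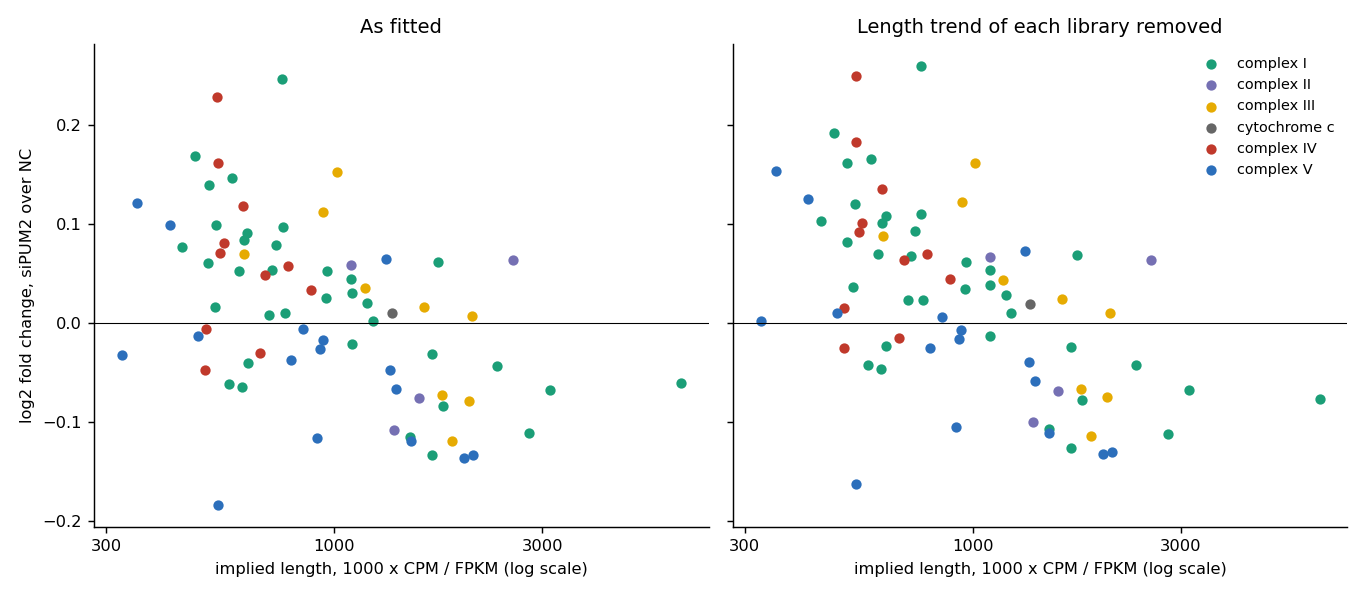
Log2 fold change of each tested subunit (siPUM2 over NC, y axis) against its implied length (from the ratio of CPM to FPKM, x axis, log scale), coloured by complex, as fitted on the left and with each library's length trend removed on the right. On both sides most short genes lie above 0 and most long genes below 0.

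Genes that build the complexes changed at about the rate of all genes, with a few larger changes. Over the assembly factor lists of complexes I to V, 61 genes were tested, 5 were higher and 10 were lower (24.6%, against 28.4% of all genes). Complex I had 0 higher and 3 lower of 19, and DESeq2 gave the same counts, with 1 positive change at an unadjusted p under 0.05, while without NC 1 there were 1 higher and 5 lower. The genes called lower were Tmem126a at 25.2 ± 2.17 CPM in siPUM2 cells and 30.8 ± 0.974 CPM in NC cells (log2 fold change -0.29, adjusted p = 0.000641 by edgeR), Acad9 (-0.26, adjusted p 0.000973 by edgeR) and Timmdc1 (-0.23), factors of the assembly of the membrane arm. For complex II, the assembly factor Sdhaf4, which acts on the flavin subunit, was higher (0.25, adjusted p 0.00110 by edgeR) and Sdhaf1, which acts on the iron-sulphur subunit, was lower (-0.20, adjusted p 0.00373 by edgeR).

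Cox17, the copper chaperone that supplies complex IV, had the largest change of the assembly factors. It had 64.6, 69.9 and 71.9 CPM in siPUM2 libraries, against 47.0, 44.1 and 42.0 CPM in NC libraries, 1.55-fold higher without overlap (log2 fold change 0.63, SE 0.05, adjusted p = 5.46e-11 by edgeR). Cox20 (0.23), Higd2a (0.23) and Cox14 (0.11) were also higher, and Cox10 (-0.25), Lrpprc (-0.18) and Higd1a (-0.11) were lower, of 26 tested, while DESeq2 called 2 higher and 3 lower. Without siPUM2 3 the Cox14 change was 0.06 and not called. Lrpprc, which stabilises mitochondrial messages, averaged 107 ± 2.36 CPM in siPUM2 cells and 121 ± 1.09 CPM in NC cells (adjusted p = 2.01e-05 by edgeR). For complex III, Uqcc1 (-0.28, adjusted p 0.000577 by edgeR) and Bcs1l (-0.21, adjusted p 0.0192 by edgeR) were the 2 lower of 6, and the Bcs1l call was lost without NC 2, siPUM2 1 or siPUM2 2 and by DESeq2. For complex V, Atpaf1, a chaperone of the F1 beta subunit, was lower (-0.32, adjusted p 0.000997 by edgeR) among 6 genes, and Fmc1 was not called (-0.19, adjusted p 0.164 by edgeR).

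The 13 mitochondrially encoded subunits, which are partners of the nuclear ones in complexes I, III, IV and V, had 7 lower calls and 0 higher by edgeR. The share called was 53.8%, against 28.4% of all genes. DESeq2 gave 6 lower and 1 higher, voom 7 lower and 2 higher, and 1 had a positive change at an unadjusted p under 0.05. That gene was COX1, the most abundant of the 13, at 21085 ± 440 CPM in siPUM2 cells and 20254 ± 189 CPM in NC cells. For COX1 every siPUM2 library was above every NC library, but it was not called (log2 fold change 0.06, adjusted p = 0.0916 by edgeR). Without NC 3 or siPUM2 3 there were 8 lower and 1 higher. ND1 averaged 2267 ± 23.5 CPM in siPUM2 cells and 2617 ± 55.0 CPM in NC cells (log2 fold change -0.21, SE 0.02, adjusted p = 1.66e-07 by edgeR). ND5 averaged 1014 ± 41.6 CPM in siPUM2 cells and 1203 ± 88.8 CPM in NC cells (log2 fold change -0.25, SE 0.04, adjusted p = 4.08e-06 by edgeR). Both genes were lower in every siPUM2 library than in any NC library. ND4L (-0.33), ND4 (-0.18), COX2 (-0.13), CYTB (-0.09) and COX3 (-0.08) were the others. In siPUM2 libraries ND4L had 208, 202 and 143 CPM, against 233, 227 and 236 CPM in NC libraries. The library siPUM2 3 stood lowest, and without it the log2 fold change was -0.18 for ND4L and -0.12 for ND4, both still called. The ND4L call was lost by DESeq2 (adjusted p 0.135). It was also lost by limma on log2(FPKM + 1) and log2(FPKM + 0.1), at adjusted p 0.0811 and 0.0736. The COX3 call was lost without siPUM2 1 (adjusted p 0.0511 by edgeR).

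Of the regulators of mitochondrial biogenesis, 3 were higher and 6 were lower among 20 tested (45% called, against 28.4% of all genes). Of the 23 listed, 2 were not matched by symbol, the coactivator Ppargc1a and Esrrb, so nothing is given for them. Prkaa2 and Prkaa1, the catalytic subunits of the energy sensor AMPK, were higher by 0.73 (24.7 ± 0.445 CPM in siPUM2 cells, 14.8 ± 0.876 CPM in NC cells, adjusted p = 3.67e-10 by edgeR) and 0.28 (adjusted p 0.000239 by edgeR). Tfb1m, a mitochondrial methyltransferase, was higher by 0.21 with overlapping groups. Nrf1 (-0.18), Gabpa (-0.19) and its partner Gabpb1 (-0.20), transcription factors of respiratory genes, were lower, as were Esrra (-0.13) and the coactivators Ppargc1b (-0.79) and Pprc1 (-0.11). Ppargc1b was scarce, at 1.27 ± 0.331 CPM in siPUM2 cells and 2.20 ± 0.212 CPM in NC cells, and its call was lost without siPUM2 2 (adjusted p 0.0633 by edgeR). Without NC 2 the regulators had 2 higher and 2 lower calls, without NC 3 or siPUM2 2 they had 3 and 3, and DESeq2 called 2 higher and 5 lower.

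**Figure D5:**
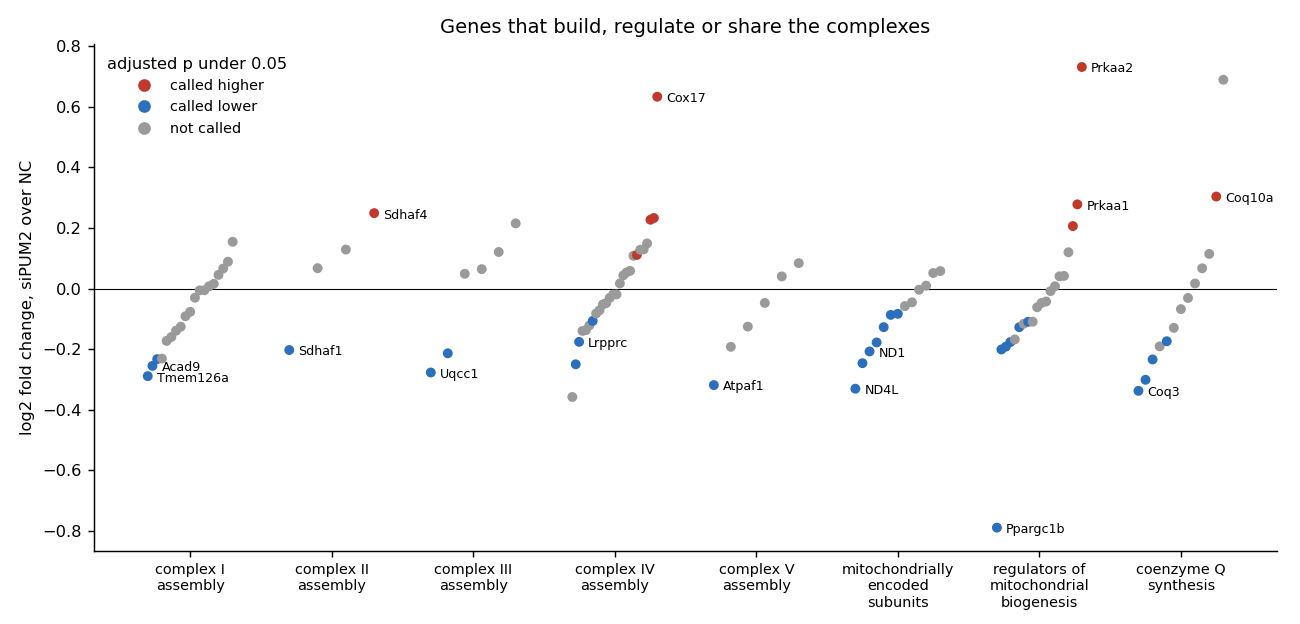
Log2 fold change (siPUM2 over NC, y axis) of each tested gene in the lists of assembly factors, mitochondrially encoded subunits, biogenesis regulators and coenzyme Q synthesis (x axis), coloured by the edgeR call. Cox17 and Prkaa2 stand highest among the called genes and Ppargc1b lowest, and 7 of the 13 mitochondrially encoded subunits are called lower.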

How the data were processed

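Per the labels' protocols, polyadenylated RNA was made into directional libraries and sequenced from both ends. HISAT2, DESeq2 and the build mRatBN7.2 are listed, without roles, per the submitters' processing notes. Their versions, the counter and the annotation were not given in the sources used here. Per the file headers, the deposited tables hold raw whole-number counts per gene and FPKM, which the authors scaled by gene length and library size. Groups and replicate numbers came from the titles and treatment labels.

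Counts were tested with edgeR 4.0.16 in R 4.3.3 (TMM factors, filterByExpr, quasi-likelihood test, group as the only term). The filter left 12985 genes and removed 6840, which held 0.0465% of the counts. Adjustment was by Benjamini-Hochberg over the genes tested, with calls under 0.05. TMM-scaled CPM are given as mean ± SD, and fold changes as siPUM2 over NC. The common biological coefficient of variation was 3.47%. Isoform shares used FPKM with a 2-sided exact permutation test in SciPy 1.17.1, and complexes were summed in FPKM with no test. Implied lengths came from CPM over FPKM, and the length trend of each library was taken out by a smoothed offset. Promoters are RefSeq's on GRCr8, not the build of the counts, matched by symbol.

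Members and lists (assembly factors of each complex, mitochondrially encoded subunits, biogenesis regulators, coenzyme Q synthesis, TCA cycle, other electron donors to ubiquinone, protein import, tissue isoforms, and cardiomyocyte, myoblast, fibroblast, endothelium and macrophage markers) were chosen with earlier results of these data known. One marker gene is not reported here and is left out of its list. Genes chosen by rule were the tissue isoforms and their partners, in each complex the 2 members of lowest p and the one of highest FPKM, members called with a log2 change of at least 0.2 in size, and from each list the 2 of lowest p; further genes (such as Ndufs8, Ndufa9, Atp5f1a, Atp5f1d, Atp5mk and Uqcr11) are given to describe a subgroup or complete a count and were chosen after their values were seen. The alternatives comprised DESeq2 1.42.0, limma 3.58.1 (voom, and log2(FPKM + 1) or log2(FPKM + 0.1)), other scaling factors, filters, thresholds, a replicate block, removal of the length trend and each library left out. The scripts were tested on simulated data. No library was a copy of another: the chi-square per degree of freedom between libraries was 2.04 to 3.65 in the same group and 11.9 to 13.2 across groups.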

Additional observations from a re-analysis of the deposited data

How the results depend on the processing

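Counts of calls among the 90 tested genes depended on single libraries and on length. Leaving out each library in turn gave 9 (without NC 3) to 15 higher and 11 to 17 lower members, and 1603 to 1798 higher and 1395 to 1740 lower genes in all. Members called higher numbered 23 with the length trend removed and 25 with the length trend removed and a replicate block; the cause was not tested. At an adjusted p under 0.01, 1126 genes in all were called lower, against 1731 under 0.05. On log2 scale, the summed difference of complex II was 0.0098 without Sdhc (-0.04 with it), and that of F1 was -0.12 in summed CPM and -0.042 without Atp5f1b (-0.09 with it). The 90 tested members and the called or named genes of the lists, 156 in all, gave 3115 values, counted by gene and alternative setting. Direction was kept in all but 63 of these values, all of genes not called. Of the 88 genes called, 35 lost the call in at least 1 setting, 10 of them members. List genes that lost it with at least 1 library left out were Bcs1l, COX3, Col1a1, Coq6, Cox10, Cox14, Cs, Des, Esrra, Gabpa, Gabpb1, Higd1a, Idh3g, Mdh2, Mymk, Nrf1, Pdk2, Pdss1, Ppargc1b, Tfb1m, Timm50 and Tomm22. Each library left out in turn, chosen after seeing the data for the isoform shares, moved the log2 ratio to between -1.20 and -0.83 for Cox6a2 and between -1.16 and -0.76 for Cox8b.

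The replicate numbers did not pair the samples: deviations of same-numbered libraries correlated at 0.036, 0.020 and 0.0026. With a replicate block, 15 members were higher and 15 lower, and 1984 and 1747 genes in all. Counting error limits Cox6a2, Cox8b, Cox7b2 and Ppargc1b, and the smallest change called among the members was 0.08 on the log2 scale.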

Other observations

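Over all genes tested, 15.1% were called higher and 13.3% lower. Of 23 tested genes of the TCA cycle and pyruvate dehydrogenase, 2 were higher and 8 were lower, with a median log2 fold change of -0.03. Pdha1, the alpha subunit of pyruvate dehydrogenase, averaged 162 ± 3.69 CPM in siPUM2 cells and 132 ± 1.95 CPM in NC cells (log2 fold change 0.30, SE 0.03, adjusted p = 2.12e-09 by edgeR). Dlst, a component of the 2-oxoglutarate dehydrogenase complex, averaged 159 ± 4.82 CPM in siPUM2 cells and 176 ± 3.50 CPM in NC cells (log2 fold change -0.15, SE 0.03, adjusted p = 0.000176 by edgeR). Pdk2, a kinase that inactivates pyruvate dehydrogenase, was the other higher gene (0.26), and its relative Pdk3 was lower (-0.25). Citrate synthase (Cs, -0.07), Suclg1 (-0.14), Fh (-0.13), Idh3g (-0.12), Mdh2 (-0.08) and Pdp2 (-0.18) made up the rest. Without NC 2 the counts were 2 higher and 5 lower, without NC 3 they were 1 and 7, and without siPUM2 2 they were 1 and 6.

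Of 13 genes for coenzyme Q, the carrier between complexes I or II and complex III, 1 was higher and 4 were lower. The share called was 38.5%, against 28.4% of all genes. Coq3, a methyltransferase of its synthesis, was lower (-0.34, adjusted p 0.000988 by edgeR), as were Pdss2 (-0.30), Pdss1 (-0.23) and Coq6 (-0.17). Coq10a, which binds coenzyme Q, was higher (0.30, adjusted p 0.00134 by edgeR). DESeq2 called 1 higher and 2 lower, and so did the fits without NC 1, NC 2, siPUM2 1 or siPUM2 3. Among 6 tested genes listed as other electron donors to ubiquinone, 1 was higher and 1 was lower (33.3% called, against 28.4% of all genes). Sqor, which oxidises sulphide, had 75.8, 75.8 and 72.7 CPM in siPUM2 libraries, against 53.3, 53.1 and 52.7 CPM in NC libraries, 1.41-fold higher (log2 fold change 0.49, SE 0.04, adjusted p = 7.44e-11 by edgeR). Etfdh, which passes electrons from fatty acid oxidation, was lower (-0.24, adjusted p 0.00707 by edgeR). Among 14 genes of the outer membrane and of protein import, 4 were lower and 0 were higher by edgeR (28.6% called, against 28.4% of all genes). DESeq2 and voom each called 3 lower and 0 higher, and 1 gene had a positive change at an unadjusted p under 0.05. The 4 called lower by edgeR were Tomm70 (-0.26, adjusted p 9.14e-06 by edgeR), Tomm40 (-0.13, adjusted p 0.00236 by edgeR), Timm50 (-0.13) and Tomm22 (-0.09). Without siPUM2 2 or NC 1, 2 of these genes were called lower, and without NC 1 the Tomm22 change was -0.06.

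Ndufb1, the symbol of a complex I accessory subunit, is typed as a long non-coding RNA in the file and so falls outside the rule. It averaged 44.8 ± 3.47 CPM in siPUM2 cells and 40.6 ± 1.16 CPM in NC cells (log2 fold change 0.14, SE 0.06, adjusted p = 0.0556 by edgeR), with overlapping groups.

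Markers of other cell types were at similar sums in both groups. The fibroblast list summed to 16529 to 16966 CPM in siPUM2 libraries and 16909 to 16991 CPM in NC libraries, nearly all of it Col1a1 (log2 fold change -0.08, called lower) and Col1a2, while Pdgfra and Lum had at most 4 counts in any library and Thy1 was called higher (0.31). Dcn had 0, 3 and 0 counts in siPUM2 libraries and 5, 6 and 4 in NC libraries, too few to be tested. The endothelium list summed to 2.16 to 2.64 CPM in siPUM2 libraries and 2.25 to 2.38 CPM in NC libraries, mostly Vwf. The macrophage list summed to 0.972 to 1.37 CPM in siPUM2 libraries and 0.787 to 1.82 CPM in NC libraries. Nkx2-5, a cardiac transcription factor, was not called (-0.14, adjusted p 0.124 by edgeR).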
